A study of Rattus norvegicus with 12 samples.

Results

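Axon guidance ligands and receptors were represented on the array by 86 probes with 67 gene names, of 30367 gene probes with 26214 names. The probes were chosen by gene name alone: netrins with the netrin-G proteins, the netrin receptors Dcc and Unc5, Slits, Robos, semaphorins, neuropilins, plexins, ephrins and Eph receptors. All 67 names were current rat gene symbols in RefSeq. The name Unc5cl fell under the rule although this gene is not known as a netrin receptor, and its only probe was not well above background on any array. Efna3 had 0 probes under that name in the files. The study lists a probe of this array as Efna3 for another exposure, and that probe was not read here.

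Expression was measured on 1-colour arrays in neuron-enriched cultures of the cerebellum of Sprague-Dawley rats aged 1 day, grown to day 16 in vitro (DIV). The 6 control cultures and the 6 cultures that received acetamiprid (ACE, a neonicotinoid used against insects) at 1 µM from day 2 onward all carried the solvent dimethyl sulfoxide at 0.001%, and serum was present only during the first part of the culture period. Each replicate number marked a separate culture experiment, whose control and ACE cultures came from the pooled cerebellar cells of several neonates of a single litter, and whose 2 arrays shared a slide. Culture lot and slide therefore cannot be told apart, and the same holds for exposure and place on the slide, since the ACE array lay at the same place in all 6 pairs.

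Guidance proteins steer growing axons and dendrites and later act at synapses. Netrins attract through Dcc and repel through Unc5 receptors, Slits repel through Robos, secreted class 3 semaphorins act through neuropilins paired with plexins while most membrane-bound semaphorins bind plexins directly, and ephrins signal with Eph receptor tyrosine kinases in both directions between touching cells. In the cerebellum, Unc5c and Dcc take part in the migration of granule cell precursors, Sema6a and Plxna2 in the inward movement of granule cells, and Robo and Slit proteins in the growth of cerebellar axons and dendrites.

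Of the 86 probes, 63 were well above background on all 12 arrays and 4 on none, and 75 probes of 61 genes passed the filter on dim signal and were tested. Of the 11 probes that were not tested, the 3 without a signal above background beside Unc5cl belonged to Epha1, Ntng1 and Ntng2, and the others belonged to Epha2, Epha6, Epha8, Robo3, Efna5, Ntn3 and Sema3g. Epha2, Epha8, Robo3, Ntng1 and Sema3g each had another probe that was tested. The untested Sema3g probe lay at a log2 signal of 8.72 on the control array of replicate 6 and at 4.71 or less on the other 11 arrays. All signals given here are log2 of the processed intensity after quantile normalisation, and all differences are ACE minus control on that scale. A probe's level was not set against that of another probe.

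The 12 arrays differed in brightness, with a 75th percentile of processed intensity from 1803 to 4384, and 66 to 80 of the 86 guidance probes were well above background per array. Lists of markers of cell types were read on the same arrays. Neuronal, astrocyte, oligodendrocyte and microglial markers were detected throughout, with 4 of 5 neuronal genes and all 5 genes of each glial list well above background on all 12 arrays. The mean signal of 8 skeletal muscle genes ranged from 6.30 to 10.66 in control and from 6.00 to 9.36 in ACE, and was lower in ACE in 5 of 6 pairs, by 1.22 on average. It was high on both arrays of replicate 1 and on the control arrays of replicates 2 and 6. The astrocyte list was lower in ACE in 6 of 6 pairs, by 0.07 on average, the neuron list was higher in 5 of 6 pairs, by 0.11, and the list of inhibitory neuron genes was higher in 4 of 6, by 0.19. The part of these lists in the differences of guidance probes was not tested. In RNA of mixed cultures, fewer cells of a type and less RNA per cell cannot be told apart.

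The comparison of control with ACE (CvA) asked whether chronic exposure during differentiation was followed by other transcript levels of these genes. The sizes were small: Ntn1, encoding netrin-1, and Epha8, an Eph receptor kinase, had the largest positive differences, at 0.68 and 0.49, while Slit1, a repellent ligand, and the receptors Robo4 and Epha10 lay between -0.22 and -0.19 and were lower in every pair. The most negative differences were those of Ntn5 (-0.36), the tested Sema3g probe (-0.22) and Plxna3 (-0.22), which were not lower in every pair and had an unadjusted limma p over 0.05. Only 3 of the 6 control arrays had Ntn1 well above background, and with the normexp background correction its difference was 0.17, below the 0.29 of Epha8 and the 0.25 of Sema7a. No guidance probe passed the threshold of 0.05 after adjustment over all 23796 probes tested (limma with the replicate number as a block, Benjamini-Hochberg; 0 of 75, lowest adjusted p = 0.141), and the share called among all probes was 0%.

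At an unadjusted limma p under 0.05, 17 of 75 guidance probes (22.7%) were called, against 16.6% of all probes tested. Of these, 10 were higher in ACE (13.3%, against 6.9% of all probes; 4 without replicate 2 and 5 without replicate 4, where 11.8% and 14% of all probes were called either way) and 7 lower (9.33%, against 9.73%). This split depended on the scaling: with each array shifted by its 75th percentile, 6 were higher and 9 lower, and the higher share of the called probes went from 58.8% to 40%, whereas the authors' deposited table gave 12 higher and 5 lower (70.6%). Of all probes, 17.7% were called with the shift and 16.8% with the deposited table, and the shift moved the median of all probes to -0.033. The difference had the same sign in all 6 pairs for 12 of 75 probes (16%), against 11.6% of all probes. Of the 12, 4 were higher (background 4.72%) and 8 lower (background 6.86%). A mean change of at least 1.5-fold was seen in 1 of 75 probes, Ntn1, against 1.72% of all probes, and Ntn1 fell short of that fold with the 75th percentile shift (0.56), with normexp, a background correction that compresses low signals (0.17), and without replicate 5 (0.58). The median difference over the 75 probes was -0.025 and that over all probes was -0.0050, and 47 of the 75 differences were smaller than 0.1 in size. In the 3 pairs in which no array was high for the muscle markers (3, 4 and 5), 8 guidance probes were higher and 5 lower, against 6.77% called of all probes. This set of pairs was chosen after the data were seen.

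**Figure D1:**
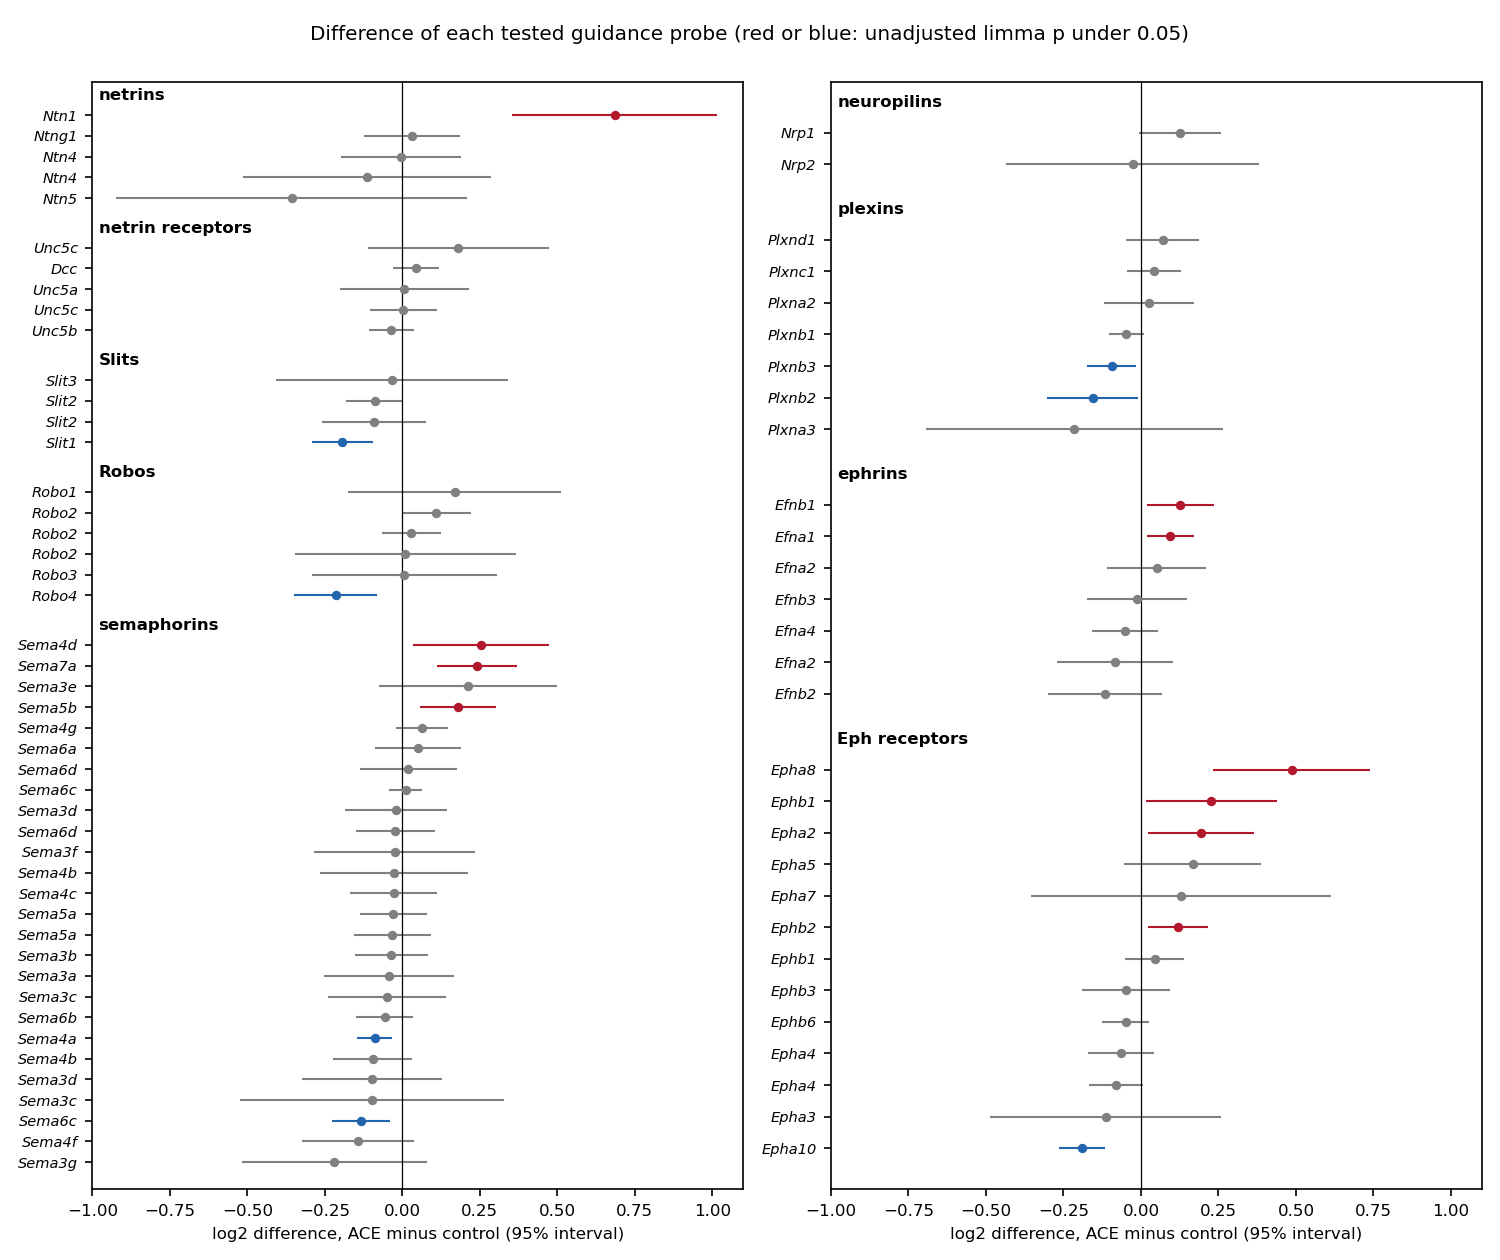
Log2 difference (ACE minus control) of each of the 75 tested guidance probes with its 95% interval, ordered within each family. Red and blue mark an unadjusted limma p under 0.05 (10 higher, 7 lower); Ntn1 at 0.68 lies farthest from 0, and most intervals cross 0.

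The 10 probes with an unadjusted p under 0.05, the same sign in all 6 pairs and sufficient signal were Ntn1, Epha8, Sema7a and Efna1 (higher) and Robo4, Slit1, Epha10, Sema6c, Plxnb3 and Sema4a (lower). Their 60-base sequences are printed because they are what the array measured for these genes, and a second Sema6c probe is added because it carries the same gene name. Each is printed as the files give it, and capitals mark the longest unbroken run of G and C.
Ntn1: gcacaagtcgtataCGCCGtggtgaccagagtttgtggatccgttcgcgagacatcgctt
Slit1: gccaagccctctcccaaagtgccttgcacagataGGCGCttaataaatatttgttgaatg
Sema4a: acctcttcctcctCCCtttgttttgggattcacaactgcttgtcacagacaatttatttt
Sema6c, lower: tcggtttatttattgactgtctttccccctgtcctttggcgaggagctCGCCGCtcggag
Sema6c, second probe: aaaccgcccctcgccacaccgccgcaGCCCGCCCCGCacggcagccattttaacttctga
Sema7a: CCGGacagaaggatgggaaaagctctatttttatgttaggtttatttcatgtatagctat
Efna1: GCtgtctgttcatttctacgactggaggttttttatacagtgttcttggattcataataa
Robo4: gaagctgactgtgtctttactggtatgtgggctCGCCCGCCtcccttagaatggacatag
Plxnb3: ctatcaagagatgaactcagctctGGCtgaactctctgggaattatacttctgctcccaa
Epha8: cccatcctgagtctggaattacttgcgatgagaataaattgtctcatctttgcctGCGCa
Epha10: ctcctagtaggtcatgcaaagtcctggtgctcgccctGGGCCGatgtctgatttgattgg

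Among the netrins, Ntn1 was the probe with the largest difference of all 75. It lies at chr10:54950706-54950765 on the minus strand (rn4, per the file headers). In control the signal was 3.43 at the lowest, 4.61 at the median and 5.04 at the highest, and in ACE it was 4.35, 5.06 and 6.17. The groups overlapped, but the ACE array was the higher of its slide in all 6 pairs, by 0.30 in pair 3 to 1.23 in pair 5. The difference was 0.68 ± 0.14 (SE, n = 6 pairs; 95% interval 0.35 to 1.01) with an limma adjusted p of 0.143, and without replicate 5 it was 0.58. The probe was dim, being well above background on 3 control and 5 ACE arrays, and its difference was 0.17 with normexp at an offset of 50. The study listed this probe for ACE from the same arrays, so its direction here is not independent evidence.

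The other 4 netrin probes had differences from -0.36 (Ntn5) to 0.03 (Ntng1, an anchored protein that binds synaptic partners), none called. The Ntn5 value rested on pair 6 (-1.66) and was -0.096 without it, and the Ntng1 value was -0.026 without replicate 2. Ntn5 and 1 of the 2 Ntn4 probes were well above background on part of the arrays. None of 5 tested netrin receptor probes was called, against 16.6% of all probes. The largest difference was 0.18, at the Unc5c probe that was well above background on 5 control and 6 ACE arrays (0.078 without replicate 1). For Dcc, the attractive receptor, the control signals were 5.82, 6.19 and 6.73 (lowest, median, highest) and the ACE signals 5.87, 6.19 and 6.84. They overlapped almost wholly, and the difference was 0.04 (95% interval -0.03 to 0.12). For Unc5c, the repulsive receptor of granule cell precursors, the other probe ran from 8.75 over 9.39 to 9.82 in control and from 8.85 over 9.46 to 9.67 in ACE. Its difference was 0.0028 (95% interval -0.10 to 0.11), with replicate 1 the lowest in both groups.

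All 4 Slit probes lay below 0, with a median of -0.09. Slit1, a secreted repellent, read at chr1:246813911-246813970 on the minus strand, ran from 7.95 over a median of 8.57 to 9.17 in control and from 7.76 over 8.32 to 9.15 in ACE. It was lower in ACE in 6 of 6 pairs, by 0.02 in pair 1 and by 0.19 to 0.31 in the other pairs. The difference was -0.19 ± 0.04 (SE, n = 6 pairs) with an limma adjusted p of 0.147. The 2 probes of Slit2 gave -0.09 each, and one of them was lower in all 6 pairs without being called (-0.057 without replicate 6). At the other Slit2 probe, control ran from 10.71 over 11.44 to 12.04 and ACE from 10.65 over 11.28 to 12.13. The 95% interval of its difference was -0.26 to 0.08, the groups overlapped, and without replicate 6 the difference was -0.045. Slit3 lay at -0.03 with an interval of -0.41 to 0.34, and its sign turned without replicate 5 (0.080) or 6 (0.066). In pairs 5 and 6 the median Slit difference was -0.31 and -0.29, and in pairs 1 to 4 it lay between -0.04 and 0.03.

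Of the 6 Robo probes tested, only Robo4 was called, against 16.6% of all probes. Robo4 is the Robo family member known from endothelial cells, and its probe lies at chr8:38664963-38665022 on the plus strand. It ran from 7.92 over 8.31 to 8.91 in control and from 7.82 over 7.99 to 8.88 in ACE. It was lower in ACE in all 6 pairs, by 0.03 in pair 1 to 0.45 in pair 4, with a difference of -0.22 ± 0.06 (SE, n = 6 pairs; limma adjusted p = 0.179). Of the endothelial markers read beside it, Cdh5 was also lower in 6 of 6 pairs (-0.24) and also highest in replicate 1, whereas Kdr was lower in 4 of 6 pairs (-0.10) and Pecam1 lay at 0.13. The list of 5 endothelial genes ranged from 5.29 to 5.71 in control and from 5.18 to 5.55 in ACE, and was lower in 4 of 6 pairs. Of its genes, Tek was not well above background on any array, and Cldn5 was above it on 2 arrays of each group. The part of endothelial cells in the Robo4 value was not tested. The nearest tested guidance probe, that of Robo3 on the opposite strand at chr8:38669561-38669620, showed a difference of 0.0060 (95% interval -0.29 to 0.30) and was well above background on 4 control and 5 ACE arrays. Without replicate 4 the Robo3 value was -0.11.

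Robo1 and Robo2, the neuronal Slit receptors, were not called. Robo1 ran from 4.02 over 4.64 to 5.08 in control and from 4.22 over 4.73 to 5.24 in ACE, and its difference of 0.17 (95% interval -0.17 to 0.51) was 0.01 without replicate 6. At the Robo2 probe chosen for its detection, control ran from 8.45 over 8.57 to 9.08 and ACE from 8.43 over 8.59 to 9.11, with a difference of 0.03 (95% interval -0.07 to 0.12). Replicate 3 stood above the other replicates in both groups. The other Robo2 probes gave 0.11 and 0.01, the latter -0.090 without replicate 3.

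**Figure D2:**
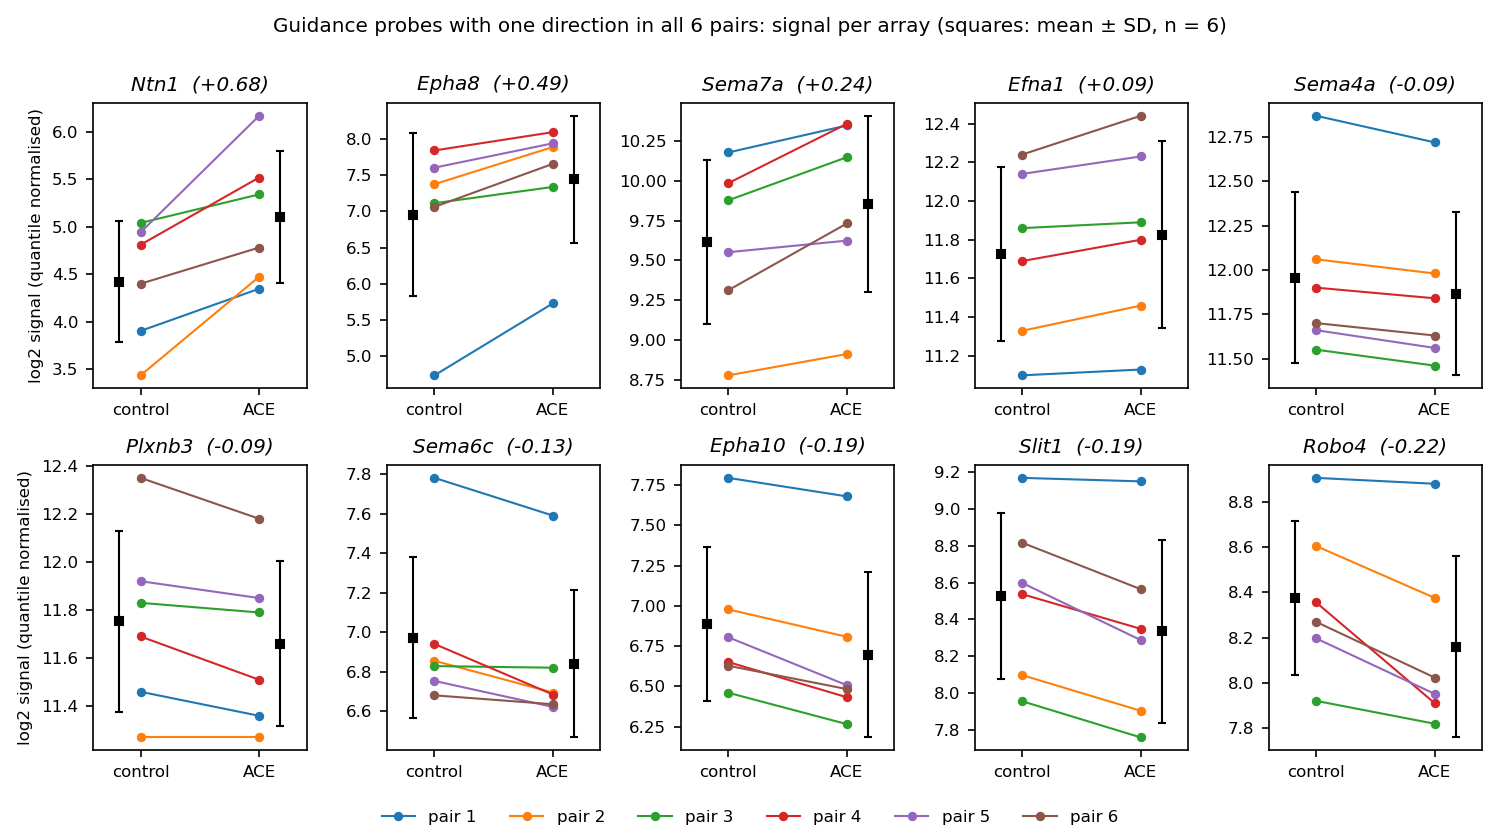
Log2 signal of the 10 probes that had the same sign in all 6 pairs and an unadjusted limma p under 0.05, as 1 line per pair (control to ACE), with the mean ± SD of each group as squares. The vertical axes differ between panels; all lines of a panel run the same way, while the groups overlap in each.

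Semaphorins formed the largest family, with 26 tested probes of 20 genes. At an unadjusted limma p under 0.05, 3 probes were higher (Sema4d, Sema7a and Sema5b) and 2 lower (Sema6c and Sema4a). Of all probes tested, 6.9% were called higher and 9.73% lower. The family median was -0.03. Sema7a, a membrane-anchored semaphorin that promotes axon growth through integrins, was read at chr8:61739451-61739510 on the plus strand. It ran from 8.78 over 9.71 to 10.18 in control and from 8.91 over 9.94 to 10.36 in ACE. It was higher in ACE in all 6 pairs, by 0.07 in pair 5 to 0.42 in pair 6, and its difference was 0.24 ± 0.05 (SE, n = 6 pairs; limma adjusted p = 0.155).

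Sema4d, a ligand of plexin-B1, and Sema5b, a transmembrane semaphorin, were higher in 5 of 6 pairs each. Their differences were 0.25 (limma adjusted p = 0.256) and 0.18 (limma adjusted p = 0.196). Sema4a, a membrane-bound class 4 semaphorin read at chr2:180552435-180552494 on the minus strand, ran from 11.55 over 11.80 to 12.87 in control and from 11.46 over 11.73 to 12.72 in ACE. All 6 pairs were lower, by 0.06 to 0.15, and the mean difference was -0.09 ± 0.02 (SE, n = 6 pairs; limma adjusted p = 0.184). This was the smallest of the 17 differences, and it was small beside the 1.29 that separated the highest from the lowest replicate mean.

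The 2 probes of Sema6c, a transmembrane semaphorin, lie on the same strand of chromosome 2 with 98 bases between them, at chr2:190078589-190078648 and chr2:190078431-190078490. At the first, control ran from 6.68 over 6.84 to 7.78 and ACE from 6.62 over 6.69 to 7.59, with all 6 pairs lower and a difference of -0.13 ± 0.04 (SE, n = 6 pairs; limma adjusted p = 0.202). At the second, control ran from 15.24 over 16.25 to 16.51 and ACE from 15.23 over 16.26 to 16.56, with a difference of 0.01 (95% interval -0.04 to 0.06). The 95% interval at the first probe was -0.23 to -0.04, and the difference between the 2 probes was not tested. The second probe held 66.7% G and C with a run of 11, against 55% and a run of 6 for the first, as the capitals above show, and the part of composition was not tested.

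Of the class 3 and class 6 ligands with known cerebellar roles, Sema3a and Sema6a were not called. Sema3a, a secreted repellent, ran from 6.17 over 6.76 to 7.22 in control and from 6.12 over 6.79 to 7.13 in ACE, with a difference of -0.04 (95% interval -0.25 to 0.17; from -0.12 without replicate 3 to 0.024 without replicate 5). Sema6a, the ligand of Plxna2, ran from 10.69 over 11.16 to 11.74 in control and from 10.84 over 11.06 to 11.85 in ACE, with a difference of 0.05 (95% interval -0.09 to 0.19; 0.0089 without replicate 2).

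The neuropilin Nrp1, which binds Sema3a, ran from 6.97 over 7.92 to 8.10 in control and from 7.29 over 7.91 to 8.19 in ACE, was higher in 5 of 6 pairs and had a difference of 0.13 (95% interval -0.01 to 0.26). Nrp2 lay at -0.03 with a wider interval, -0.44 to 0.38, and ranged from -0.11 without replicate 3 to 0.13 without replicate 1. Among 7 plexin probes, each of another gene, 0 were called higher and 2 lower, against 6.9% and 9.73% of all probes. The plexin median was -0.05. Plxnb3, a class B plexin read at chrX:159693863-159694041 on the plus strand, ran from 11.27 over 11.76 to 12.35 in control and from 11.27 over 11.65 to 12.18 in ACE. It was lower in 6 of 6 pairs, by less than 0.01 in pair 2, and its difference was -0.09 ± 0.03 (SE, n = 6 pairs; limma adjusted p = 0.242). Plxnb2, a class B plexin of granule cell precursors, was lower in 4 of 6 pairs with a difference of -0.16 (limma adjusted p = 0.281).

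Plxnb1 was lower in all 6 pairs without being called (-0.05). The largest difference among the plexins was that of Plxna3, -0.22 with a 95% interval of -0.69 to 0.26 (limma adjusted p = 0.608), which was not called, was -1.30 in pair 6 and was 0.0018 without that pair. For Plxna2, the receptor of Sema6a, control ran from 8.34 over 8.65 to 8.78 and ACE from 8.44 over 8.65 to 8.89, with a difference of 0.03 (95% interval -0.12 to 0.17). For Plxnd1, the receptor of Sema3e, control ran from 10.72 over 11.35 to 11.48 and ACE from 10.99 over 11.35 to 11.51, with a difference of 0.07 (95% interval -0.05 to 0.19; 0.029 without replicate 1). The group medians were nearly equal for both genes, and replicate 1 was the lowest in both groups for both genes.

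Among 7 tested ephrin probes, 2 were higher and none lower, against 6.9% and 9.73% of all probes. Efna1, an anchored ligand of EphA receptors, was read at chr2:181444621-181444680 on the minus strand, and ran from 11.10 over 11.78 to 12.24 in control and from 11.13 over 11.85 to 12.44 in ACE. It was higher in 6 of 6 pairs, by 0.02 to 0.20, with a difference of 0.09 ± 0.03 (SE, n = 6 pairs; limma adjusted p = 0.233). It was not called at an unadjusted p under 0.05 with normexp (0.077), with the replicate as a random block, in pairs 3 to 5 or without replicate 2, 4 or 6. Efna4, 78 kb away on the same strand, lay at -0.05 (from -0.089 without replicate 3 to -0.026 without replicate 6). Efnb1, a transmembrane ephrin, was higher in 5 of 6 pairs (0.13, limma adjusted p = 0.247), and the 2 Efna2 probes differed in sign, at 0.05 and -0.08. The first Efna2 value was -0.0080 without replicate 2, and the second ranged from -0.13 without replicate 4 to -0.028 without replicate 6.

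Among 13 tested Eph receptor probes, 4 were higher (Epha8, Ephb1, Epha2 and Ephb2) and 1 lower (Epha10). The shares of all probes tested were 6.9% and 9.73%. The family median was 0.04, and -0.05 without replicate 4. Epha8, read at chr5:155694804-155694861 on the minus strand, ran from 4.74 over 7.24 to 7.84 in control and from 5.73 over 7.77 to 8.09 in ACE. Both lowest values came from replicate 1, and all 6 pairs were higher in ACE, by 0.99 in pair 1 and by 0.23 to 0.59 in the other pairs. The difference was 0.49 ± 0.11 (SE, n = 6 pairs; limma adjusted p = 0.150), 0.38 without replicate 1, and 0.29 with the normexp background correction. The inhibitory neuron list was higher in ACE in 4 of 6 pairs, by 0.57 in pair 1. It was lower in pair 5 (8.88 in control, 8.82 in ACE) and in pair 6 (8.06 and 7.97). In those pairs Epha8 was higher in ACE by 0.34 and 0.59. The part of this list in the Epha8 value was not tested. Epha10, an Eph receptor without an active kinase, was read at chr5:144248843-144248902 on the plus strand and had the lowest adjusted p of the guidance probes. It ran from 6.46 over 6.73 to 7.80 in control and from 6.26 over 6.50 to 7.68 in ACE, and was lower in every pair, by 0.12 to 0.30. The difference was -0.19 ± 0.03 (SE, n = 6 pairs; limma adjusted p = 0.141).

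Ephb2, a receptor with roles at excitatory synapses, ran from 5.21 over 5.63 to 6.09 in control and from 5.45 over 5.69 to 6.22 in ACE. It was higher in 5 of 6 pairs, with a difference of 0.12 (limma adjusted p = 0.234), and lies on the same strand as Epha8, 272 kb away. It was not called at an unadjusted p under 0.05 with the 75th percentile shift (0.012), with normexp (0.039), with the replicate as a random block, with the exact signed-rank test, in pairs 4 to 6, in pairs 3 to 5 or without replicate 1, 2, 3 or 4. The 2 Ephb1 probes gave 0.23 (limma adjusted p = 0.277) and 0.04, so that the call rested on 1 of the 2 probes, whose difference was 0.15 without replicate 4. The other Ephb1 probe ranged from 0.026 without replicate 6 to 0.075 without replicate 1. Epha2 was higher in 5 of 6 pairs (0.19, limma adjusted p = 0.262). Epha4, a receptor of ephrins of both classes, ran from 9.84 over 10.45 to 10.65 in control and from 9.64 over 10.44 to 10.58 in ACE at the first of its probes. Its 2 probes gave -0.07 (-0.038 without replicate 6) and -0.08, neither of them called.

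The intervals set what could be seen. Over the 75 probes the half-width of the 95% interval ran from 0.05 (the second Sema6c probe) to 0.57 (Ntn5), so a difference smaller than the half-width of its probe could not be told from 0 even before adjustment.

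The replicates of the same group differed at most guidance probes. Tested by the F-test of the replicate coefficients in the same limma fit, 64 of 75 guidance probes (85.3%) differed between replicates after adjustment, against 83.9% of all probes. Over the guidance probes the range of the 6 replicate means had a median of 0.985, against 0.0811 for the size of the ACE difference. The medians over all probes were 0.766 and 0.0615. A range of 6 means tends to exceed the size of a mean difference by construction, so the ratio of both is read against that of all probes. Its median was 12.6 for the guidance probes and 11.6 for all probes. Within the scan batch that held pairs 4 to 6, 10 of 75 guidance probes differed between replicates, against 8.68% of all probes, and without replicate 1 the count was 54, against 70.3% of all probes.

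**Figure D3:**
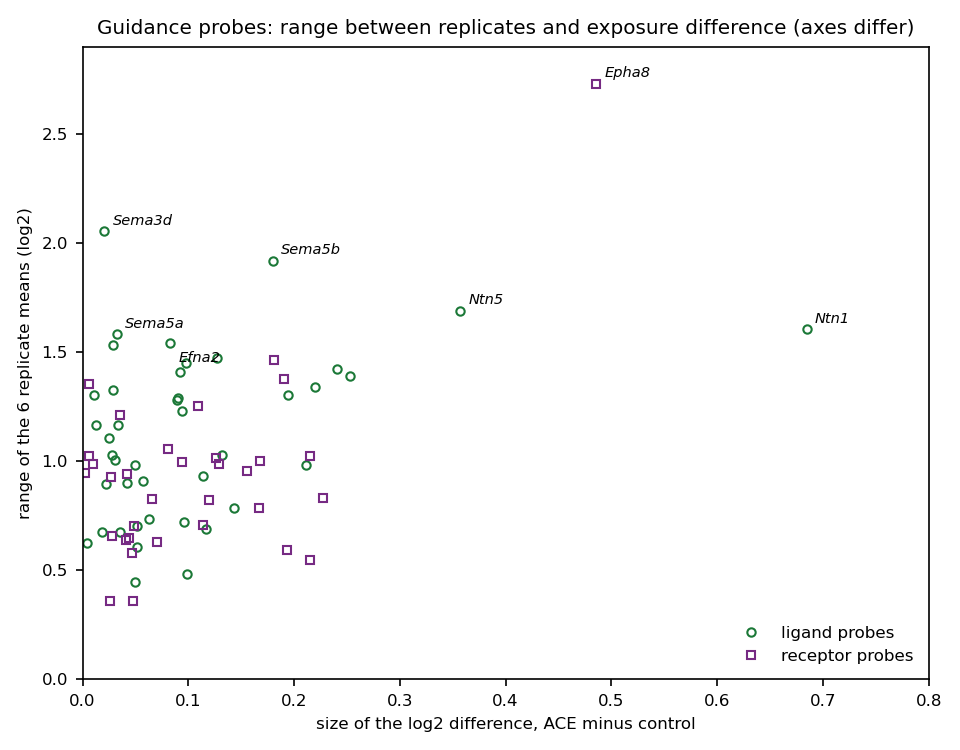
Each of the 75 tested guidance probes by the size of its ACE difference (horizontal) and the range of its 6 replicate means (vertical), both in log2 units, with ligands as circles and receptors as squares. The 2 axes have different scales; Epha8 has the widest range at 2.73 and Ntn1 the largest difference at 0.68.

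Replicate 1 was the highest or the lowest replicate at 50 of 75 guidance probes (66.7%, against 56.5% of all probes), being highest at 23 and lowest at 27. Replicate 6 was an extreme at 32 probes (42.7%, against 31.4%), and replicate 3 at 21 (28%, against 45.3%). Both arrays of replicate 1 were also read out with an earlier version of the image analysis software. The arrays of replicates 1, 2 and 3 were each scanned at a time of their own, whereas those of replicates 4 to 6 were scanned together, so that for the former 3 the scan cannot be told apart from culture lot and slide.

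**Figure D4:**
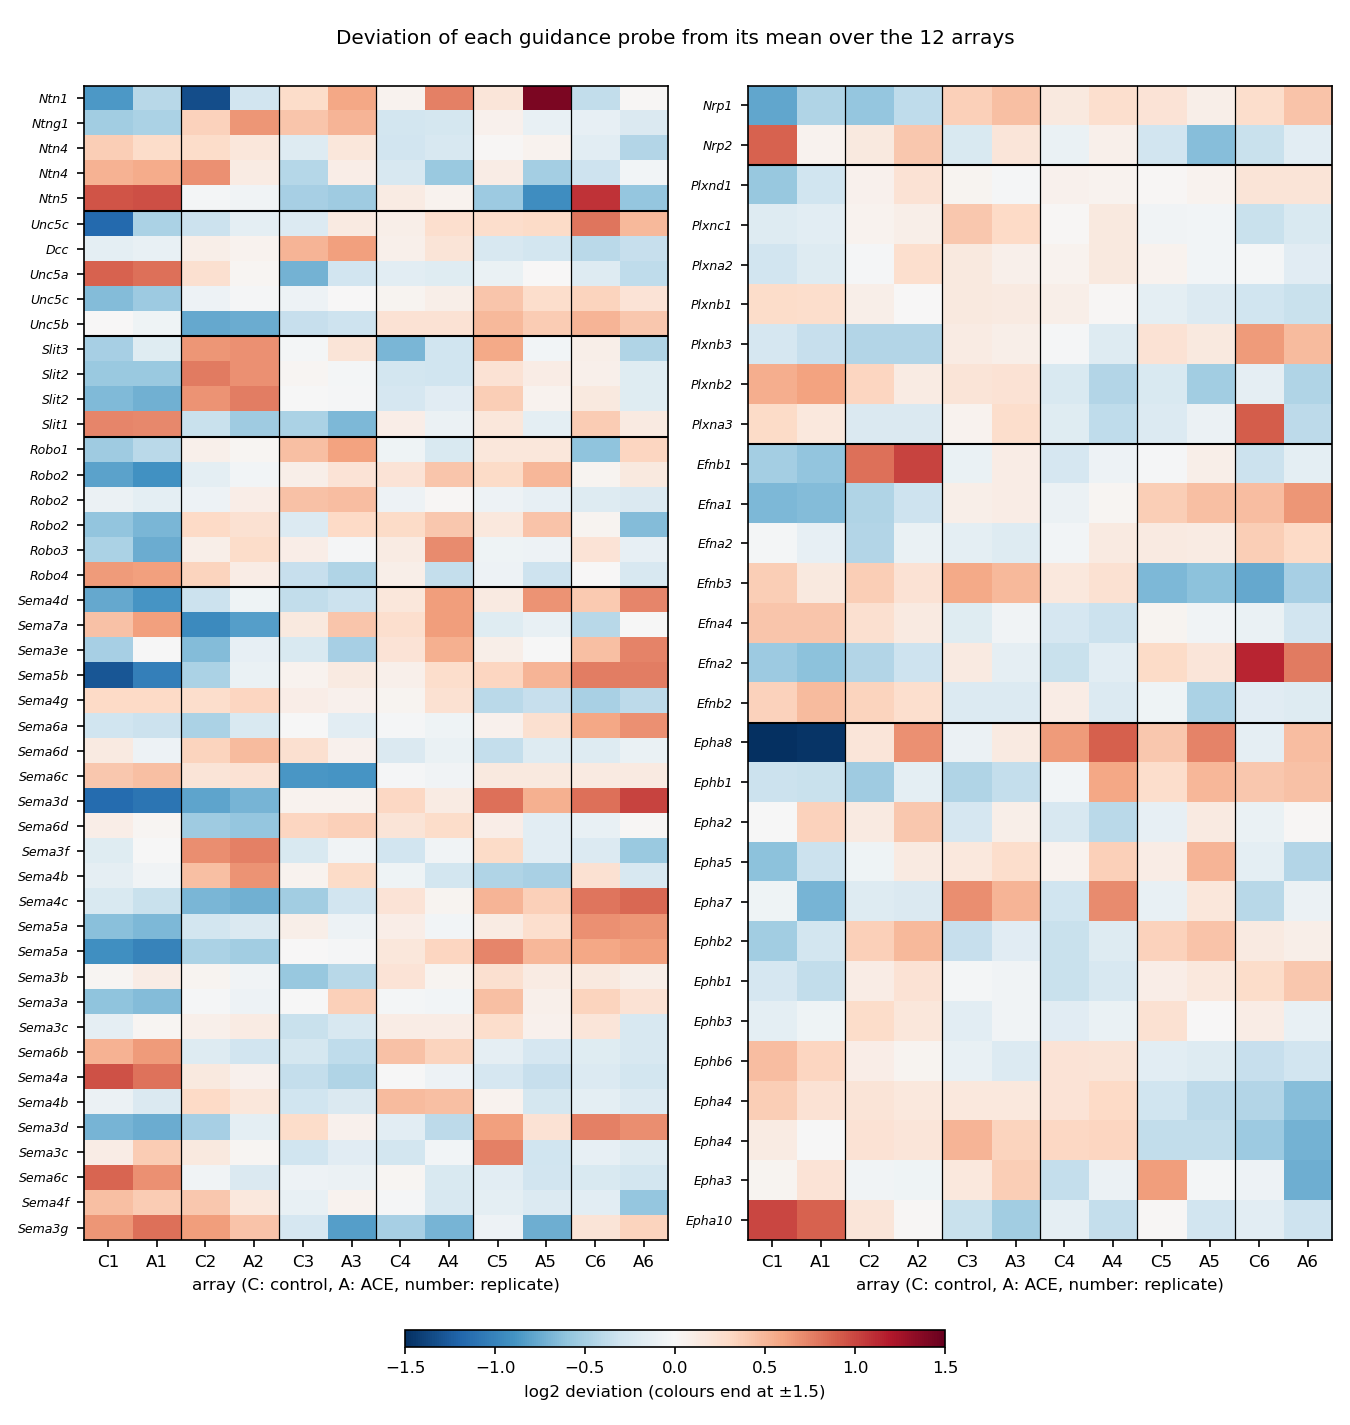
Deviation of each tested guidance probe (rows, by family) from its mean over the 12 arrays (columns, control and ACE of a replicate side by side), in log2 units with colours ending at ±1.5. The 2 arrays of a replicate share their colours at most probes, and at Epha8 both arrays of replicate 1 lie below all others.

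Among the probes that differed between replicates after adjustment and were well above background on at least 6 arrays, the widest ranges were those of Epha8 (2.73), Sema3d (2.05), Sema5b (1.92), Ntn1 (1.60), Sema5a (1.58) and Efna2 (1.54). Ntn5 (1.69) did not pass the F-test after adjustment. Sema3d, a secreted repellent, ran from 5.55 over 6.89 to 7.54 in control and from 5.61 over 6.79 to 7.73 in ACE, with replicate 1 lowest and replicate 6 highest in both groups. Sema5b showed the same order at its ends, from 6.33 over 7.67 to 8.38 in control and from 6.58 over 7.81 to 8.37 in ACE. Sema5a, a transmembrane semaphorin with thrombospondin repeats, ran from 8.82 over 9.83 to 10.48 in control and from 8.74 over 9.90 to 10.36 in ACE, again lowest in replicate 1. Efna2, an anchored ephrin, ran from 5.66 over 6.11 to 7.35 in control and from 5.59 over 6.06 to 6.99 in ACE, lowest in replicate 1 and highest in replicate 6.

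At these probes Sema3d, Sema5b, Sema5a and Efna2 were low in replicate 1 and high in replicate 5 or 6. Ntn1, also a ligand, had its lowest replicate mean in replicate 2 and its highest in replicate 5. The second Efna2 probe was lowest in replicate 2 instead, with a range of 0.605. The oligodendrocyte marker list, 5 of 5 genes detected, read 13.93 in both groups in replicate 1, 13.71 and 13.74 in replicate 2 (control and ACE), and 14.58 and 14.65 in replicate 6. The astrocyte list ran the other way, at 14.45 and 14.39 in replicate 1 and at 13.56 and 13.50 in replicate 6, and the muscle list read 10.19 and 9.36 in replicate 1. Epha8 was lowest in replicate 1, where the inhibitory neuron list (3 genes) read 6.88 in control and 7.45 in ACE against 7.97 to 9.44 on the other arrays, and the granule cell list (5 genes) 8.25 and 8.52 against 9.01 to 9.51. Of the granule cell genes, Gabra6 (4.80 and 5.65) and Neurod1 (7.11 and 7.81) were far lower in replicate 1 than elsewhere. Reln was slightly lower there (9.72 and 9.56), and Pax6 (9.86 and 9.76) and Zic1 (9.77 and 9.80) were not lowest there. The part of cell composition in these replicate differences was not tested.

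**Figure D5:**
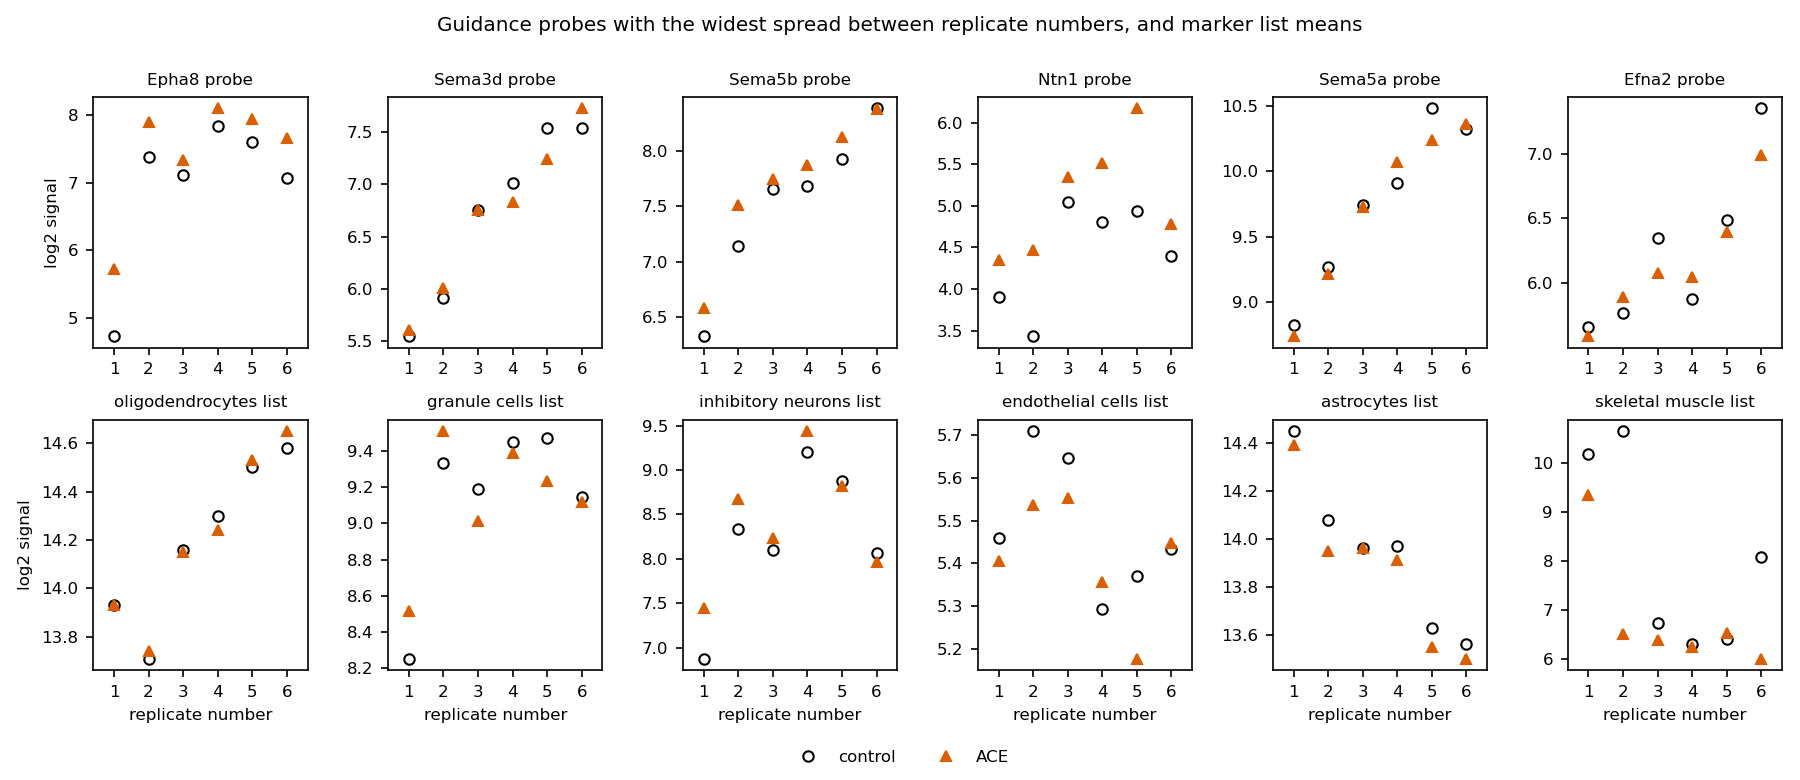
Log2 signal by replicate number (control as circles, ACE as triangles) for the 6 guidance probes with the widest range between replicates among those that passed both conditions (top) and for the mean of 6 cell type marker lists (bottom). Sema3d, Sema5b, Sema5a and Efna2 are lowest in replicate 1, as is Epha8, and the vertical axes differ between panels.

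Of 13 genes with more than 1 tested probe, Efna2, Sema6c and Sema6d were the ones whose probes differed in sign. The same share over all genes on the array was not computed. Among the genes with a common sign, some values lay near 0 and turned when 1 replicate was left out. These were 1 probe each of Unc5c (0.0028), Robo2 (0.0095) and Ntn4 (-0.0043). The 2 probes were closest for Slit2 and Sema5a, and they were farthest apart for Ephb1 (0.04 and 0.23) and Unc5c (0.0028 and 0.18).

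Genes that carry guidance signals inside the cell or act beside the receptors were read from a list of 76 names, 71 of them tested with 93 probes. None passed after adjustment (limma, 0 of 93). At an unadjusted p under 0.05, 10 probes (10.8%, against 16.6% of all probes) were called, 6 higher and 4 lower, and 16 were called without replicate 3, where 17.5% of all probes were. By single probes, the higher ones were Srgap2, a partner of Robo receptors (0.10, limma adjusted p = 0.175), the kinases Abl1 (0.22) and Limk1 (0.13), which act on the actin skeleton, the adhesion molecules Cntn2 (0.18) and Nfasc (0.15), and Dpysl4 of the collapsin response mediators (0.07). The lower ones were the adhesion molecules L1cam (-0.23, limma adjusted p = 0.172) and Cntn1 (-0.10), the semaphorin effector Mical2 (-0.17) and Rgma, a ligand of neogenin (-0.13). The L1cam, Cntn1 and called Rgma probes were lower in 6 of 6 pairs, and the Limk1, Cntn2 and called Srgap2 probes higher in 6 of 6. Other tested probes of these genes were not called: the second Srgap2 probe lay at -0.026, the second Rgma probe at 0.020, the other Abl1 probes at -0.060 and -0.0077, and the other Nfasc probes at 0.068 and -0.011.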

How the data were processed

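Per the file headers, the authors extracted intensity values from the 12 arrays with Feature Extraction, version 11.0.1.1 (both arrays of replicate 1) or 11.5.1.1 (the other 10). This processed intensity is background-subtracted and detrended, and arrays were not scaled to each other. A log2 table was deposited too, quantile normalised and centred per probe by the authors. It correlated at 0.997 to 0.999 per array with the values computed here, and was used as an alternative.

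Outlier spots were set to missing, and every tested guidance probe kept a value on each array. Log2 processed intensity was quantile normalised over the 12 arrays and spots were averaged per probe. Probes above the 20th percentile of their array on at least 7 of 12 arrays, with at least 4 complete pairs, were kept (23796 of 30367). limma 3.58.1 (lmFit, eBayes, two-sided) in R 4.3.3 was fitted to all of them with the replicate number as a block, with Benjamini-Hochberg adjustment. The block follows from the culture lots of the study. Deviations from the group means correlated at 0.434 to 0.909 between control and ACE arrays of the same number and at -0.433 to 0.384 otherwise, and no arrays were identical (0). Scripts were tested on simulated data. Figures were drawn with matplotlib 3.10.9. The number of arrays limits the precision.

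Probes were named singly where they were called with the same sign in all 6 pairs and had signal well above background on 3 or more arrays in the group where they were higher (up to 8 each way), for 13 genes with known cerebellar or family roles, and for the 6 widest ranges between replicates. The guidance genes, the effector list and the marker lists were chosen with earlier results of these data known. Alternatives covered scaling, background correction, the deposited table, the block, filters, the rank test and the pairs used.

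The probe positions are those of the files (rn4). Exons and transcripts at the probes were not assigned here.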

Additional observations from a re-analysis of the deposited data

Results flagged for a closer look

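In 9 of 72 groups of 6 values (26 named probes, the family medians and the median over all guidance probes, in each group of cultures), the most extreme value stood apart from the rest by Dixon's test at 95%. Chance gives about 5% of independent groups, but 6 of the named probes were chosen for a wide range between replicates. Over all tested probes with 6 values a group, 8.33% of the control and 8.68% of the ACE groups stood apart in this way, and over the 75 guidance probes 8 control (10.7%) and 6 ACE groups (8%) did. In 8 of the 9 the extreme value came from replicate 1, which was also the source at 44.2% of such control groups and 50.2% of such ACE groups over all probes. Epha8 was lowest in replicate 1 in control (4.74, next 7.06) and in ACE (5.73, next 7.34). Sema6c was highest there in control (7.78, next 6.94) and in ACE (7.59, next 6.82). Unc5c in ACE was lowest there (8.85, next 9.38), as were Plxnd1 in control (10.72, next 11.31) and the median of the Robo probes in control (5.29, next 5.93), while the median of the netrin receptor probes in ACE was highest there (8.50, next 7.71). Robo2 in control was highest in replicate 3 (9.08, next 8.57). The control and ACE arrays of a replicate share their culture lot and slide, so the control and ACE values of replicate 1 are not independent of each other.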

How the results depend on the processing

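The count of guidance probes past the adjusted threshold was 0 under each alternative run (the signed-rank test could not pass it, with its smallest p reached at 11.6% of all probes), and none of the 26 named probes passed it (for Epha8, limma adjusted p from 0.0857 with normexp, the lowest of any, to 0.9998 with no replicate block). The numbers pair the samples, and with no replicate block 0 probes were called higher, 0 lower and 0 of the effector list at an unadjusted p under 0.05. The count called higher was 6 with the 75th percentile shift, 6 with the replicate as a random block and 4 by the exact signed-rank test, whose smallest p with 6 pairs is 0.03125. In the scan batch of pairs 4 to 6, 33 probes kept the same sign in all pairs, 10 differed between replicates and the semaphorin median was -0.088. In pairs 3, 4 and 5, an alternative chosen after seeing the data, these counts were 28 and 29 (the latter of 75, against 33% of all probes), and 5 effector probes were called. Fewer pairs make a common sign more frequent by construction (42.7% and 30.9% of all probes). Leaving out each replicate in turn gave 4 to 9 probes higher (4 without replicate 2, 5 without replicate 4), 5 to 10 lower, 13 to 18 with the same sign, 54 to 67 that differed between replicates, and 7 to 16 of the effector list (16 without replicate 3). Over all probes the shares moved too, from 11.8% to 17.5% called, 14.3% to 18.9% with the same sign and 70.3% to 84.4% that differed between replicates. The median ranged from -0.045 to 0.0086 over all guidance probes, -0.056 to 0.0030 for semaphorins, -0.054 to 0.0020 for plexins, 0.0093 to 0.11 for neuropilins, -0.048 to 0.075 for Eph receptors (-0.048 without replicate 4), -0.03 to 0.03 for ephrins, -0.12 to -0.05 for Slits, 0.00045 to 0.056 for Robos, -0.08 to 0.05 for netrins and -0.01 to 0.05 for netrin receptors. With the shift, which moved the median of all probes to -0.03, the neuropilin, Robo and netrin receptor medians were -0.02, -0.05 and -0.05, and the deposited table put the netrin median at 0.0015.

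The 10 probes chosen for the same sign in all 6 pairs cannot turn when pairs are left out, and the block and the filters leave each difference as it is. Named probes took the other sign under some of the remaining alternatives. With the shift these were Dcc (-0.054), Unc5c (-0.013), Robo2 (-0.0010) and Plxna2 (-0.0088). With normexp it was Unc5c (-0.0091). In pairs 4 to 6 they were Unc5c (-0.075) and Plxna2 (-0.049), and in pairs 3, 4 and 5 Unc5c (-0.0040), Robo1 (-0.00074), Sema6a (-0.015), Plxna2 (-0.026), Plxnd1 (-0.0088) and Epha4 (0.00047). Without 1 replicate, Unc5c ranged from -0.018 to 0.033, Robo2 from -0.0016 to 0.047, Sema3a from -0.12 to 0.024, Plxna2 from -0.024 to 0.060, Sema3d from -0.063 to 0.033 and Sema5a from -0.071 to 0.0086. The cause was not tested. Dim signal limits 12 tested probes that were not well above background on all arrays, those of Epha7, Robo1, Robo3, Ntn1, Ntn5, Sema3e and Sema4f and 1 probe each of Robo2, Ntn4, Unc5c, Sema3g and Sema4b. At an unadjusted p under 0.05, Plxnb3, Sema4a, Sema5b and Sema6c also lost their call under some alternatives beside the lack of a block: Plxnb3 with the deposited table, the random block, pairs 3 to 5 or without replicate 1, 4 or 6, Sema4a with the random block or in either set of 3 pairs, Sema5b with the random block, the signed-rank test or in pairs 4 to 6, and Sema6c in either set of 3 pairs. The called probes of Sema4d, Epha2, Ephb1, Efnb1 and Plxnb2 did not keep the same sign in all 6 pairs. By the exact signed-rank test they were therefore not called. Their calls under the other alternatives are not given here.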
